A study of Homo sapiens with 7 samples.

Results

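Human chromosome 19 outside its 5 zinc-finger gene spans held 5499 of the 47959 peaks in the 6 deposited lists, or 11.5%. A peak belonged to this territory when it lay on chromosome 19 (hg19) and its start fell outside the spans 19.9 to 24.5, 36.7 to 38.4, 44.3 to 45.0, 52.3 to 54.0 and 56.5 to 58.9 Mb. The rule reads positions alone and no peak height or fold. The territory contributed 2209 of 14240 peaks (15.5%) with the antibody to the C terminus of NuMA and 2905 of 19518 (14.9%) with the antibody to its N terminus. It contributed 124 of 4552 and 155 of 5553 peaks in the wild-type histone H1 libraries, and 71 of 2616 and 35 of 1480 in the NuMA-depleted ones.

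By the labels, all libraries were CUT&Tag on 10000 cells of the colon cancer line HCT116, although the peak names of the NuMA lists say ChIP-seq. In CUT&Tag an antibody brings the transposase Tn5 to chromatin, so that DNA beside the bound protein is cut and tagged. Histone H1 was profiled in 2 libraries of genotype wild type, titled NC, and in 2 of genotype NuMA depletion, titled AID. These title codes were not spelled out in the labels, so whether the groups also differ in clone or treatment is not known, and neither is the degree of depletion. The NuMA libraries, 1 per antibody, came from wild-type cells, and an immunoglobulin G library was not analysed here. Separate cultures were not stated for the replicates, so a p-value between the H1 groups measures the spread of these libraries, which may be technical.

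NuMA, the nuclear mitotic apparatus protein, is a long coiled-coil protein that resides in the nucleus in interphase and gathers at the spindle poles in mitosis, where its C-terminal part contacts microtubules and cortical adaptors. Histone H1 is the linker histone, which sits where DNA enters and leaves the nucleosome and helps nucleosome arrays to fold. Chromosome 19 is the most gene-dense human chromosome. Its zinc-finger gene clusters are known for a repressive chromatin with the KAP1 corepressor and heterochromatin protein 1, whereas much of the remaining sequence carries densely packed active genes. No genome sequence or gene annotation of the build hg19 was at hand, so regions are given by position and no gene or base sequence is attached to them.

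The depth of each library was read from the peaks themselves, since the lists hold no read totals. The summit fragments and the local background follow from each peak's fold and p, and at least 99.2% of the peaks in every list gave a fragment number that was whole to within 0.02. As a measure of relative depth, the lowest background of a list was divided by its shortest peak. On this scale the depleted H1 libraries had 58.6% and 58.5% of the depth of wild-type replicate 1, wild-type replicate 2 had 99.9%, and the NuMA libraries had 30.0% (C-terminal) and 49.7% (N-terminal). Depth and H1 group thus cannot be told apart. The median member summit held 28 fragments in the C-terminal and 54 in the N-terminal list, against 17 in each wild-type H1 list and 15 and 13.5 in the depleted ones.

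NuMA peaks were dense over this territory and almost missing from the zinc-finger spans. Over 44.7 Mb, counted from the first to the last peak of each arm, the C-terminal antibody gave 49.4 peaks per Mb and the N-terminal antibody 65.0. The 11.1 Mb of the spans held 22 and 45 peaks, or 1.98 and 4.05 per Mb, so the territory exceeded the spans 24.9-fold and 16.0-fold. It exceeded all other chromosomes, which held 4.08 and 5.63 peaks per Mb, 12.1-fold and 11.5-fold. C-terminal peaks covered 5.04% of the territory and N-terminal peaks 7.30%, against 0.374% and 0.584% of the other chromosomes. Histone H1 densities were 0.993, 1.20, 0.705 and 1.45 times those of the spans in wild-type replicates 1 and 2 and depleted replicates 1 and 2. Against the other chromosomes H1 was denser here in all 4 lists, 1.86-fold, 1.90-fold, 1.86-fold and 1.60-fold in the same order. With 1 library per antibody the NuMA densities carry no replicate error and no test.

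The edges of the spans coincided with steps in NuMA density at most places. Summed over the 10 edges, the 250 kb outside an edge held 80 C-terminal and 95 N-terminal peaks, and the 250 kb inside held 12 and 19. At 7 of the 10 edges each antibody gave more peaks outside than inside. The right edge of the last span, at 58.9 Mb, had the smallest ratio among these, with 29 C-terminal peaks outside and 7 inside, and 28 and 13 N-terminal ones. The peaks nearest to that edge began at 58904531 outside (fold 5.25) and at 58897234 inside (fold 5.80) in the C-terminal list, so NuMA-rich sequence reached across the edge there. At the left edge of the last span, at 56.5 Mb, no peak lay in the 250 kb outside, whereas 3 C-terminal and 1 N-terminal peaks lay inside.

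Along the arms, NuMA peaks were unevenly spread, and the short arm carried more per Mb than the long arm in both lists. The short arm (19.8 Mb) held 1350 C-terminal and 1769 N-terminal peaks, or 68.0 and 89.2 per Mb. The long arm (24.9 Mb) held 859 and 1136, or 34.6 and 45.7 per Mb. The short arm thus exceeded the long arm 1.97-fold with the C-terminal and 1.95-fold with the N-terminal antibody. In covered sequence, 7.04% of the short and 3.45% of the long arm lay under C-terminal peaks, and 10.6% and 4.71% under N-terminal peaks.

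In 500 kb bins the density ran from 0 to 212 C-terminal and from 0 to 258 N-terminal peaks per Mb. Of 90 bins with at least 50% of their length in the territory, the 18 densest held 47.7% of the NuMA peaks of both lists. The median bin had 65 C-terminal and 83 N-terminal peaks per Mb on the short arm, and 18 and 28 on the long arm. The middle 50% of the bins lay between 30.5 and 96 C-terminal peaks per Mb on the short arm and between 2.43 and 51.5 on the long arm. Relative to its mean, the density thus varied more on the long arm, with a coefficient of variation of 1.09 against 0.731 in the C-terminal list and 1.00 against 0.653 in the N-terminal list.

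**Figure D1:**
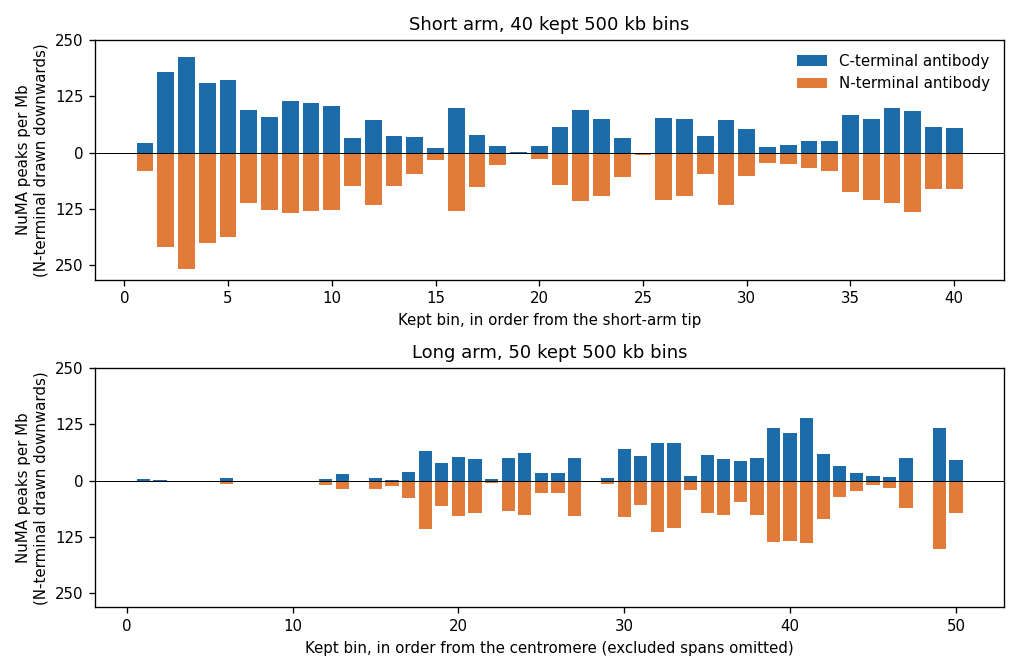
NuMA peaks per Mb in each kept 500 kb bin, C-terminal antibody upwards and N-terminal antibody downwards, with the 40 short-arm bins above and the 50 long-arm bins below (1 library per antibody, no error bars). The highest bars, 212 and 258 per Mb, stand near the short-arm tip, and the first long-arm bins are almost empty in both lists.

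Among the runs of kept bins on one side of the median, the densest was a block of 9 near the short-arm tip, from 0.5 to 5 Mb. It held 606 C-terminal and 741 N-terminal peaks, 135 and 165 per Mb. The bin from 1 to 1.5 Mb led with 106 and 129 peaks, of which 99 C-terminal peaks had an N-terminal partner. It was followed by 0.5 to 1 Mb (90 and 105 peaks), 1.5 to 2 Mb (77 and 100) and 2 to 2.5 Mb (81 and 93). The first bin of the arm, which reaches the tip, was far poorer, with 10 and 18 peaks.

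Beyond 5 Mb the short arm alternated between richer and poorer stretches. Rich stretches were found at 10 to 11.5 Mb (76.7 C-terminal and 91.3 N-terminal peaks per Mb) and at 12.5 to 13.5 Mb (76 and 100 per Mb). A further one at 17 Mb ran up to the zinc-finger span at 19.9 Mb (78.3 and 99.7 per Mb). Poorer stretches lay at 8.5 to 10 Mb (10 and 14 per Mb), 11.5 to 12.5 Mb (16 and 30) and 14.5 to 17 Mb (26.8 and 34.4).

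The long arm began with the longest run of NuMA-poor bins. All 17 bins from the centromere side to 36 Mb lay below the median bin and held only 28 C-terminal and 56 N-terminal peaks, 3.39 and 6.77 per Mb. The next bin, 36 to 36.5 Mb, had 33 and 54 peaks. Among long-arm runs of several kept bins, the one from 48.5 to 51 Mb was the richest, with 237 and 285 peaks, 94.8 and 114 per Mb, and it contained the fifth densest bin, 50 to 50.5 Mb, with 70 and 69 peaks. Further rich blocks lay at 45 to 46.5 Mb (74 and 90.7 per Mb) and at 55.5 to 56.5 Mb (81 and 112 per Mb). The latter adjoined a bin from 55 to 55.5 Mb with 0 peaks in both lists. The long-arm tip beyond the last span, 194 kb, lay in no kept bin and was dense as well, with 29 C-terminal and 28 N-terminal peaks, or 149 and 144 per Mb. In all, 38 C-terminal and 42 N-terminal peaks of the territory lay in no kept bin.

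The antibodies gave nearly the same profile along the chromosome. Over the 90 bins their counts had a Pearson correlation of 0.981 and a Spearman correlation of 0.979, and 0.978 and 0.959 over the 40 short-arm bins alone. The lists share the bins and the cell line, so the correlations are a description. Among the 57 bins with at least 10 C-terminal peaks, the N-terminal list was longer in 54 and equal in 2. The ratio of N-terminal to C-terminal peaks had a median of 1.31 and ranged from 0.986, in the bin at 50 to 50.5 Mb, to 2.31, in the bin at 5 to 5.5 Mb with 16 and 37 peaks. By the depth estimated from the background, the N-terminal library was the deeper one, and the part of depth in this ratio was not tested.

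**Figure D2:**
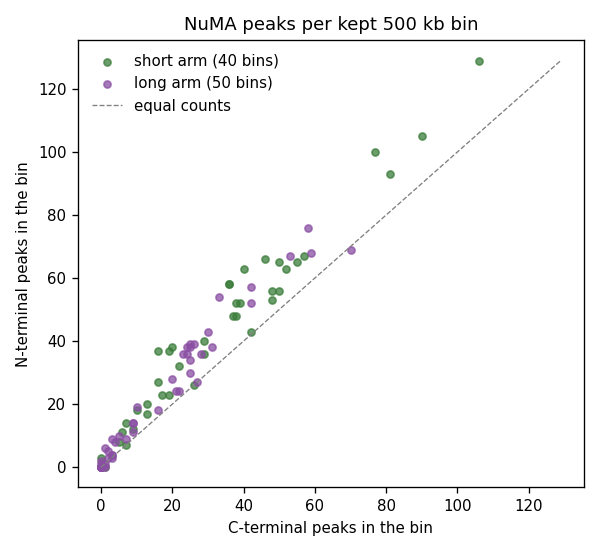
Each point is a kept 500 kb bin, with its C-terminal peaks on the horizontal and its N-terminal peaks on the vertical axis, green for the short and purple for the long arm. Nearly all points with 10 or more C-terminal peaks lie above the dashed line of equal counts.

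Region by region, 1823 of the 2209 C-terminal peaks (82.5%, Wilson 95% interval 80.9 to 84.1%) overlapped an N-terminal peak by at least 1 bp. Over all chromosomes this share was 73.0%, and 71.2% on the chromosomes other than 19. In the other direction, 1761 of 2905 N-terminal peaks (60.6%, 58.8 to 62.4%) overlapped a C-terminal peak, against 51.4% over all chromosomes and 49.8% outside chromosome 19. The intervals cover counting error only, since peaks are not replicates. N-terminal peaks covered 7.30% of this territory against 0.584% of the other chromosomes, and the part of this coverage in the overlap was not tested. The short and the long arm had similar shares, 83.0% and 81.8% of the C-terminal and 59.9% and 61.8% of the N-terminal peaks.

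The share of peaks with a partner rose with the NuMA density of the bin. The bins were ranked by the same lists, and the part of peak density in this rise was not tested. In the 30 bins with the fewest NuMA peaks per Mb, 74.3% of 70 C-terminal and 42.9% of 119 N-terminal peaks had a partner. In the middle 30 bins the shares were 79.9% of 596 and 54.2% of 856 peaks. The 30 densest bins had 83.7% of 1505 and 64.1% of 1888. The local background at the median C-terminal summit was 3.37, 3.46 and 4.50 fragments in these sets, and 10.5, 8.55 and 8.58 at the median N-terminal summit.

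The summits of the antibodies lay close together where both lists held a peak. The median distance between the C-terminal summit and the nearest N-terminal summit of an overlapping peak was 73 bp (quartiles 20 and 263 bp). Of the 1823 regions, 780 (42.8%) had summits within 50 bp, 1293 (70.9%) within 200 bp, and 302 (16.6%) were over 500 bp apart. The N-terminal summit lay at the higher coordinate in 892 regions, at the lower in 880 and at the same base in 51, in nearly equal numbers on both sides. Only 36 C-terminal peaks covered several N-terminal peaks, at most 3.

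**Figure D3:**
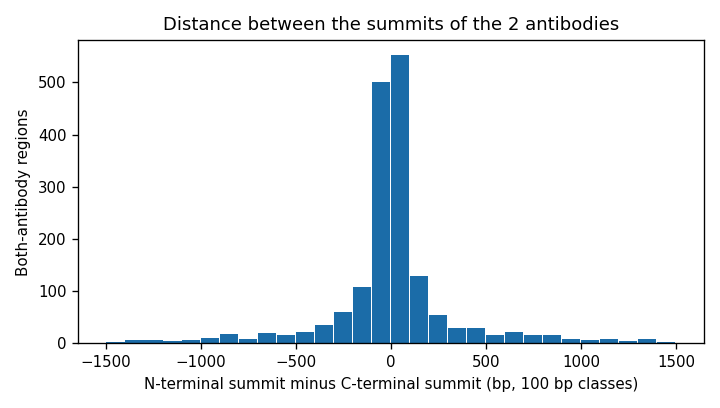
Number of both-antibody regions by the signed distance of the N-terminal from the C-terminal summit, in 100 bp classes. The 1737 regions within 1500 bp are drawn, most of them in the classes beside 0, and 86 lie farther out.

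Strength was also shared in part. Across the 1823 regions the folds of the lists had a Spearman correlation of 0.690 and the recovered summit fragments one of 0.834, both across regions and without a test. C-terminal peaks with a partner had a median width of 852 bp against 575.5 bp without one and held more fragments (30 against 15), but they had a lower median fold, 5.46 against 6.79. Shared N-terminal peaks were wider (1016 against 628 bp), held more fragments (60 against 47) and had the higher fold, 6.62 against 4.70. Folds were the authors' values and are compared within a list only, except that regions are ranked or summarised below by the lower of their folds in several lists.

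The strongest short-arm region of both antibodies was chr19:1183282-1184211. It had a fold of 28.4 with 41 summit fragments in the C-terminal list and 24.8 with 43 fragments in the N-terminal list. Next were chr19:6744534-6746331 (C-terminal fold 20.4, N-terminal fold 20.2) and chr19:11485100-11486914 (17.9 and 17.1). The other short-arm regions were chr19:6760443-6761183 (16.6 and 25.1), close to the second, and chr19:4123103-4124427 (16.6 and 16.2). The third was the exception among all 10 regions given here for the arms in that it carried an H1 peak, in both wild-type lists and in depleted replicate 1.

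On the long arm, chr19:46195309-46196498 stood first with folds of 23.1 in both lists and with 61 C-terminal and 110 N-terminal summit fragments. It was followed by chr19:45988309-45989247 (C-terminal fold 18.96, N-terminal fold 18.6), chr19:39887838-39889317 (21.4 and 18.4) and chr19:55718083-55721448 (17.6 and 21.8). The fifth, chr19:44172726-44174810 (17.9 and 17.4) was the weakest of the 5 by its lower fold. None of these 5 overlapped an H1 peak of any list.

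The widest both-antibody regions were not the strongest ones. The C-terminal peak chr19:49137511-49144293 spanned 6783 bp, met 3 N-terminal peaks and had folds of 8.46 and 13.9. The next 4 were all on the short arm, at chr19:989261-995652 (6392 bp), chr19:1264506-1269820 (5315 bp), chr19:2038168-2043446 (5279 bp) and chr19:18418025-18423259 (5235 bp). Their C-terminal folds lay between 4.64 and 6.20 and their N-terminal folds between 5.94 and 10.5, and none met an H1 peak.

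Single-antibody peaks lay at widely varying distances from the other antibody's nearest peak, up to 551 kb (C-terminal) and 626 kb (N-terminal). The 386 single C-terminal peaks lay a median of 2.61 kb from the nearest N-terminal peak, 77 (19.9%) within 1 kb and 59 (15.3%) beyond 10 kb. The 1144 single N-terminal peaks lay a median of 3.93 kb from the nearest C-terminal peak, 178 (15.6%) within 1 kb and 272 (23.8%) beyond 10 kb. Neighbouring summits within a list had a median spacing of 5.90 kb (C-terminal) and 4.93 kb (N-terminal). The part of peak density in the distances between antibodies was not tested. The strongest single C-terminal peaks were chr19:51856270-51857091 (fold 17.6, nearest N-terminal peak at 11.4 kb), chr19:60500-61257 (14.9, 9.38 kb) and chr19:51503639-51504834 (14.9, 1.17 kb). The second of these was the first NuMA peak of the chromosome. The strongest single N-terminal peaks were chr19:49645219-49646656 (fold 18.98, nearest C-terminal peak at 2.39 kb), chr19:8070602-8071049 (17.7, 25.96 kb) and chr19:39847085-39847707 (16.9, 12.7 kb).

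Long stretches without any NuMA peak lay mostly on the long arm. The distance between successive NuMA peaks of either list had a median of 2.87 kb on the short and 4.03 kb on the long arm. Stretches of at least 200 kb without a peak numbered 5 on the short arm, 10.8% of its length, and 18 on the long arm, 42.7% of its length. Of the 90 bins, 9 had 0 peaks in both lists, all on the long arm. Of the 16 bins with 5 or fewer peaks in both lists together, 14 were on the long arm. Beside these, the 3.23 Mb from 24.5 Mb to the first long-arm peak, which hold the centromere, had no peak in any of the 6 lists and were left out of all lengths.

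The longest empty stretch was chr19:30434109-32836417, 2402 kb without a peak of either antibody and with 0 peaks in all 4 H1 lists. It was preceded by the second longest, chr19:28285514-30185745 (1900 kb), which held 1 and 2 wild-type and 1 and 0 depleted H1 peaks. The third, chr19:42929337-43955097 (1026 kb), adjoins a NuMA-rich bin (42.5 to 43 Mb, 25 and 39 peaks) and held more H1 peaks, namely 4 and 5 wild-type and 1 and 2 depleted ones. The fourth, chr19:9129324-9731852 (603 kb), was the longest on the short arm and held 3 and 1 wild-type and 2 and 1 depleted H1 peaks. The fifth, chr19:54984588-55538502 (554 kb), held 0 and 2 wild-type and 1 and 0 depleted H1 peaks. Absence of NuMA peaks and presence of H1 peaks thus occurred together in 4 of these 5 stretches.

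The sixth to the twelfth longest stretches were shorter, from 551 to 369 kb. They were chr19:27733971-28284612, chr19:14685011-15219594, chr19:13323561-13820237, chr19:41903534-42364166, chr19:33864810-34310661, chr19:41315786-41698728 and chr19:54000001-54369157, the last of which begins at the edge of a span. The eighth had 0 peaks in all 4 H1 lists, like the longest one. The ninth held 3 H1 peaks in each wild-type list and 3 and 0 in the depleted lists.

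Histone H1 peaks were present in the empty stretches but sparser there than elsewhere in every library. The 23 stretches of at least 200 kb made up 28.5% of the territory. They held 21 of 124 (16.9%) and 32 of 155 (20.6%) wild-type H1 peaks and 14 of 71 (19.7%) and 9 of 35 (25.7%) depleted ones. Relative to the rest of the territory, H1 density inside was 0.510 and 0.651 for wild-type libraries and 0.615 and 0.866 for depleted ones. The sixth longest stretch, which begins beside the centromere, held 3 H1 peaks in every list, and the densities were not computed without it. For depleted replicate 2, with 9 peaks, the Wilson 95% interval of the share, 14.2 to 42.1%, includes the share of length.

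Fewer H1 peaks were listed on chromosome 19 outside the spans after NuMA depletion, but the number followed list length. Wild-type replicates 1 and 2 had 124 and 155 peaks and depleted replicates 1 and 2 had 71 and 35, so the groups did not overlap. Neither did the whole lists over all chromosomes, with 4552 and 5553 wild-type against 2616 and 1480 depleted peaks, so the lower number is not particular to this territory. The wild-type mean was 139.5 ± 21.9 peaks and the depleted mean 53 ± 25.5 (SD, n = 2), a log2 ratio of −1.40, or 2.63-fold fewer. The exact two-sided permutation test gave p = 0.333, the smallest that 2 against 2 libraries can reach. Without depleted replicate 1 the log2 ratio was −1.99. The direction turned when all 4 lists were shortened to 1480 peaks, the best by q. The territory then held 19 and 33 wild-type and 35 and 35 depleted peaks, a log2 ratio of 0.43 (exact permutation p = 0.333).

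Covered length gave the same picture as peak number, whereas the share of each list that lay on this territory differed little between the groups. Wild-type peaks covered 52.1 and 61.1 kb and depleted peaks 32.0 and 11.2 kb (log2 ratio −1.39, exact permutation p = 0.333). It was −2.33 without depleted replicate 1, and equal lists turned it to 0.20 (exact permutation p = 0.667). As a share of its list, the territory took 2.72% and 2.79% of wild-type and 2.71% and 2.36% of depleted H1 peaks. This is a difference of −0.22 percentage points (exact permutation p = 0.333), which equal lists turned to 0.61 (exact permutation p = 0.333). The 4 shares span less than 0.5 percentage points while peak numbers span 35 to 155.

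**Figure D4:**
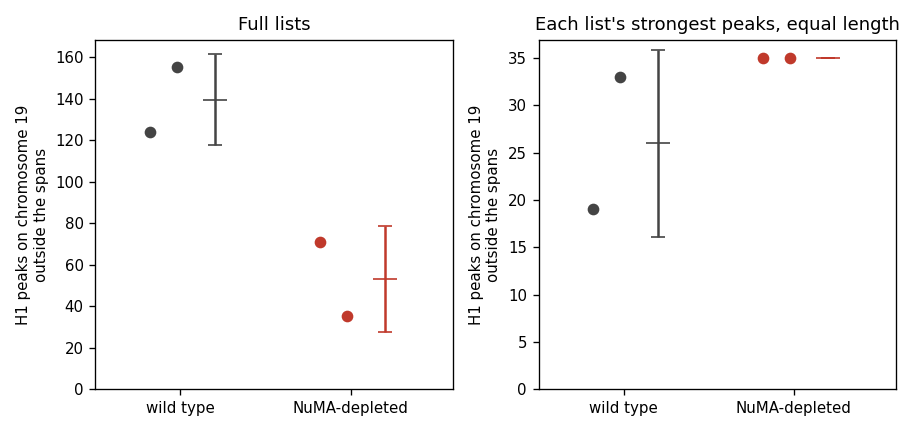
H1 peaks on chromosome 19 outside the spans in each library (points) with the group mean and SD of 2 libraries (bars), for full lists on the left and lists of 1480 peaks on the right, both axes from 0. The groups separate in opposite directions: 124 and 155 against 71 and 35 on the left, 19 and 33 against 35 and 35 on the right.

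On both arms the depleted lists held fewer H1 peaks, as they did over all chromosomes (2616 and 1480 against 4552 and 5553). The short arm went from 57 and 67 wild-type to 27 and 14 depleted peaks, a log2 ratio of −1.60 (exact permutation p = 0.333). The long arm went from 67 and 88 to 44 and 21, a log2 ratio of −1.25 (exact permutation p = 0.333). The short arm, 44.4% of the length, took 46.0% and 43.2% of the wild-type and 38.0% and 40.0% of the depleted H1 peaks (exact permutation p = 0.333). For comparison it took 61.1% of the C-terminal and 60.9% of the N-terminal NuMA peaks. Wild-type H1 peaks were therefore spread over the arms nearly by length, and NuMA peaks were not.

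Bin by bin, H1 peak numbers hardly followed NuMA. The Spearman correlation of H1 with NuMA counts over the 90 bins was 0.22 and 0.071 in the wild-type and 0.15 and −0.019 in the depleted lists. These counts are sparse, at most 5 H1 peaks in a bin, and 17 to 64 bins had 0, so these weak values are no finding. The 30 bins poorest in NuMA had 2.13 and 2.81 wild-type H1 peaks per Mb, and 1.30 and 0.824 depleted ones. For the middle 30 bins the wild-type values were 3.03 and 4.38 and the depleted ones 1.55 and 0.943. The 30 richest bins had 3.18 and 3.18 against 1.82 and 0.541. Between the poorest and the richest bins, C-terminal density went from 4.80 to 102 peaks per Mb and N-terminal density from 8.17 to 128.

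**Figure D5:**
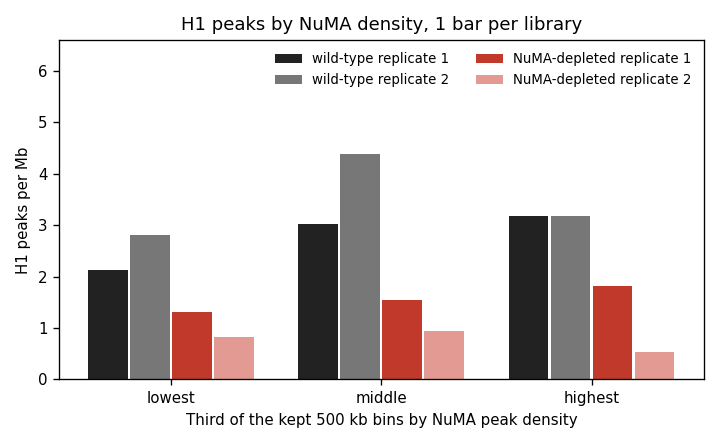
H1 peaks per Mb in 3 sets of 30 kept 500 kb bins ranked by NuMA density, 1 bar per library, axis from 0. Both wild-type bars are higher than both depleted bars in each set, and the tallest bar, 4.38 per Mb, is in the middle set. Over all chromosomes the wild-type lists are also longer, with 4552 and 5553 peaks against 2616 and 1480.

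The block from 0.5 to 5 Mb was the densest run in NuMA and not in H1. Its 4.5 Mb held 9 and 13 wild-type and 5 and 3 depleted H1 peaks. The NuMA-poor 8.27 Mb from the centromere side of the long arm to 36 Mb held 15 and 19 wild-type and 10 and 8 depleted ones. Of the latter, 4 in every list came from a cluster within 8 kb of the first long-arm peak.

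At the level of single regions, a larger share of H1 peaks met NuMA here than over the genome. Of the wild-type H1 peaks, 48 of 124 (38.7%) and 54 of 155 (34.8%) touched a both-antibody region. Of the depleted ones, 32 of 71 (45.1%) and 11 of 35 (31.4%) did. The background over all chromosomes was 14.9% and 11.9% in the wild-type and 18.2% and 13.4% in the depleted lists. NuMA peaks also cover a far larger part of this territory than of other chromosomes, as given above, and how much of the higher share follows from that was not tested. Group means of the share were 36.8 ± 2.74% and 38.2 ± 9.65% (SD, n = 2, exact permutation p = 1), so the groups overlapped. The difference of 1.48 percentage points turned to −5.35 without depleted replicate 1 and to −0.46 without wild-type replicate 2. With equal lists it was 9.54 (exact permutation p = 0.667), and without depleted replicate 2 it was 8.30.

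Counted from the NuMA side, H1 peaks were rare. Of the 1823 both-antibody regions, 48 (2.63%) and 54 (2.96%) met a wild-type H1 peak and 32 (1.76%) and 11 (0.603%) a depleted one. Over all chromosomes there were 10398 both-antibody regions. At these lay 680 and 662 wild-type and 475 and 199 depleted H1 peaks, which is more per region than on this territory in every list. Counted this way, NuMA and H1 peaks thus met less often here than over the genome. With a median of 13.5 to 17 fragments at an H1 summit, a site without a peak is not shown to lack H1. On the short arm 45.6% and 44.8% of the wild-type H1 peaks lay at such regions and on the long arm 32.8% and 27.3%. In the depleted libraries the order was the other way, 44.4% and 21.4% on the short against 45.5% and 38.1% on the long arm, from as few as 14 peaks.

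Of the H1 regions present in both wild-type lists, 64 lay on the territory. At least 1 depleted list held 32 of them (50%, Wilson 95% interval 38.1 to 61.9%), against 59.8% over all chromosomes. Both depleted lists held 7 (10.9%), against 23.9% over all chromosomes, and 4 of these 7 lay beside the centromere. Without those 4, 3 of 60 (5.0%, 1.71 to 13.7%) were in both and 28 (46.7%) in at least 1 depleted list. Depleted replicate 1 held 26 of the 64 (40.6%) and depleted replicate 2 held 13 (20.3%). With lists of 1480 peaks, only 7 wild-type regions remained, and all 7 were in at least 1 depleted list. The lists were cut by q, which favours the 4 regions beside the centromere. Their lowest −log10 q was 57.8 and 59.6 in the wild-type lists, against member medians of 7.78 and 7.97. The equal lists were not counted without them, nor over all chromosomes.

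Of the 26 wild-type H1 regions at both-antibody NuMA sites, 11 (42.3%, 25.5 to 61.1%) were in at least 1 depleted list. Of the other 38, 21 (55.3%, 39.7 to 69.9%) were, and the intervals overlap. None of the 26 was in both depleted lists, which allows a share of up to 11.5%, against 7 of the other 38 (18.4%), or 3 of 34 (8.82%) without the regions beside the centromere. The lower wild-type fold had a median of 6.31 in the 32 kept regions and 5.71 in the 32 others.

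The 7 H1 regions present in all 4 lists included 4 within 8 kb of each other at the long-arm side of the centromere. The first, chr19:27731849-27733414, had wild-type folds of 11.9 and 11.8, and depleted folds of 11.4 and 13.3. It overlapped the C-terminal peak with fold 12.2 at 27731796 but no N-terminal peak. The others were chr19:27738363-27738920 (folds 6.96 to 8.95), chr19:27733841-27734512 (2.46 to 3.08, at the same C-terminal peak) and chr19:27736209-27736535 (2.31 to 2.73). These 3 had 180 to 566 summit fragments over backgrounds of 28.9 to 175 fragments, where the median H1 member had a background of 1.07 to 1.96. The 4 regions made up 3.23% and 2.58% of the wild-type and 5.63% and 11.4% of the depleted H1 peaks of the territory.

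The other 3 regions of all 4 lists lay within the arms. At chr19:19887119-19887647, close before the first zinc-finger span, the wild-type folds were 12.7 and 9.18, the depleted folds 11.4 and 8.89, and a C-terminal peak of fold 12.2 lay there. At chr19:45004244-45004755, close after the third span, they were 7.48 and 9.24 against 8.26 and 6.32, with an N-terminal peak of fold 3.96. At chr19:8943227-8943785 they were 8.34 and 5.57 against 7.47 and 7.62, with an N-terminal peak of fold 3.13. None of the 7 was at a region of both antibodies.

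The 32 H1 regions shared by the wild-type libraries but listed in no depleted one had a median of 16 fragments at the lower wild-type summit. Their lower fold lay between 4.30 and 7.85, with a median of 5.71 against 6.31 in the kept regions. The strongest was chr19:267237-267568, with folds of 8.30 and 7.85 and an N-terminal NuMA peak of fold 3.14. Then came chr19:19843551-19844040 (8.01 and 7.56), chr19:40023268-40023635 (7.79 and 7.48), chr19:12511892-12512186 (7.03 and 8.04) and chr19:43110951-43111274 (6.80 and 7.38). The last lay in the third longest stretch without NuMA. Of the 32, 15 met a C-terminal and 20 an N-terminal peak. By the same estimate from the background, the depleted libraries had 58.6% and 58.5% of the depth of wild-type replicate 1, and the part of depth in these missing calls was not tested.

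In the other direction, 13 H1 regions were in both depleted lists. Both wild-type lists held 7 of these, a single one held 4, and 2 were found in neither. Over all chromosomes, 79.7% of such regions were in both wild-type lists and 5.64% in neither, against 53.8% and 15.4% of these 13. The 2 were chr19:4247010-4247382 (folds 5.94 and 7.01, 12 and 11 fragments, no NuMA peak) and chr19:58987235-58987626 (6.45 and 6.38, 18 and 14 fragments). The second overlapped a C-terminal NuMA peak of fold 4.45 and an N-terminal one of fold 7.93.

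For all 4 H1 lists, the share of peaks with a partner was higher when a wild-type list was searched than when a depleted one was. The same order held over all chromosomes. The wild-type lists were also the longer ones, and the part of list length in this order was not tested. Among the 124 peaks of wild-type replicate 1, 51.6% met a peak of wild-type replicate 2 (54.6% over all chromosomes), and 26.6% and 15.3% met one of the depleted lists (34.7% and 21.5%). For the 155 peaks of wild-type replicate 2 the shares were 41.3% in the other wild-type list (44.7%) and 28.4% and 11.0% in the depleted lists (28.5% and 18.1%). Of the 71 peaks in depleted replicate 1, 18.3% met the other depleted list (28.5%), against 46.5% and 62.0% for the wild-type lists (60.3% and 60.5%). The 35 peaks of depleted replicate 2 met the other depleted list in 37.1% (50.7%) and the wild-type lists in 54.3% and 48.6% (66.5% and 68.2%).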

How the data were processed

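Per the labels' protocols, CUT&Tag libraries were made from 10000 cells each and sequenced on an Illumina NovaSeq instrument. Trim Galore, Bowtie2, Picard and MACS2 with the build hg19 are named in the submitters' processing notes, without versions or roles. The deposited lists hold peaks of single libraries with a q limit of 0.001 in the peak names. Each gives a deposited score, the authors' fold (a ratio over local background), −log10 p and −log10 q, and positions. The score is 10 times the −log10 q and was not used. Settings, filters and the control for peak calling: not given in the sources used here.

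Members, bins (500 kb from position 0, kept with at least 50% in the territory), overlaps (1 bp), empty stretches and fragments recovered from fold and p were computed with pandas 2.3.3, numpy 2.4.6 and scipy 1.17.1 under Python 3.11.15 (figures: matplotlib 3.10.9), and checked on simulated peaks. Chromosomes 1 to 22, X and Y were kept. Chromosome lengths were not at hand, so lengths run from the first to the last peak of an arm or, for other chromosomes, of the chromosome, centromeres included. Both-antibody regions are C-terminal peaks that meet an N-terminal peak. Values of 2 wild-type and 2 depleted H1 libraries were tested by exact permutation, two-sided. Alternatives were stricter overlap and q, other bins, equal list lengths, each library left out and a replicate block. Wilson 95% intervals and the limit of 3 counts cover counting error only, and fragments are not known to be independent molecules.

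Regions named are the 5 strongest per arm by the lower of both folds, the 3 strongest singles per antibody, the 5 widest, the 5 densest bins, the 12 longest empty stretches, and the H1 regions of all 4 lists, of wild type only (5 strongest) and of depletion only. The members and these rules were chosen with earlier results of these data known. Planned gene and sequence annotation was not run, for want of an hg19 reference.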

Additional observations from a re-analysis of the deposited data

How the results depend on the processing

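Of 76 alternative values, 6 changed sign, 15 without a test moved beyond their counting interval, tolerance or 1.5 times, and 55 did neither, though tested H1 values among these could change in size, and with 2 against 2 libraries the exact permutation test cannot go below 0.333. The cause of a move was not tested. The share of C-terminal peaks with a partner, 82.5%, became 63.6% for a reciprocal overlap of 50%, 58.5% for summits within 200 bp and 72.8% for equal lists, and that of N-terminal peaks, 60.6%, became 48.4%, 44.5%, 67.2% and, with −log10 q of at least 5, 58.0%. The densest 20% of bins held 51.6% of NuMA peaks in 250 kb bins, 44.5% in 1 Mb bins and 49.4% in shifted bins, against 47.7%. The N-terminal arm ratio was 2.24 as covered sequence, against 1.95, and stretches of 200 kb numbered 39 for both-antibody regions, against 23. Equal lists turned the log2 ratio of H1 peak number to 0.43 and of covered length to 0.20, and the difference in list share to 0.61 percentage points. The difference in H1 peaks at both-antibody regions turned to −2.97 percentage points with −log10 q of at least 5 (exact permutation p = 1), to −0.46 without wild-type replicate 2 and to −5.35 without depleted replicate 1. The kept share of wild-type H1 regions, 50%, was 100% in equal lists, from 7 regions, and 10.9% when both depleted lists were required. The equal lists were not counted without the regions beside the centromere. Leaving out 1 library gave ranges of −1.99 to −0.97 (peak number), −2.33 to −0.82 (covered length), −0.39 to −0.044 (list share), −5.35 to 8.30 (both-antibody regions) and 20.3 to 40.6% (kept share). The kept share counts regions in at least 1 depleted list, so leaving out a depleted list cannot raise it. With the replicate number as a replicate block the log2 ratios were −1.48 (peak number) and −1.57 (covered length), each with an exact permutation p of 0.5, the smallest possible, and no call changed; the labels do not say that the numbers pair libraries. Leaving out the H1 peaks beside the centromere, chosen after seeing the data, turned none of 5 values.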
